A study of Mus musculus with 6 samples.

Results

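The vascular endothelial growth factor (VEGF) and angiopoietin system was followed in bone pieces taken 21 days after focal radiation of mouse femurs. Its members were fixed by name as 5 ligand genes (Vegfa, Vegfb, Vegfc, Angpt1 and Angpt2) and 5 receptor genes (Flt1, Kdr, Flt4, Tek and Tie1). All 10 were found among the 43346 genes of the table, and all 10 were among the 18757 that passed the filter on low counts. The animals were C57BL/6 mice, 4 months old, an inbred laboratory strain. The right distal metaphysis, the marrow-rich end of the thigh bone shaft, received 24 Gy of image-guided X-rays over 5 mm at 6.6 Gy per minute in 1 dose, and the left femur of the treated animals was the non-radiated control. There were 3 libraries per group, and no femur of an untreated mouse is analysed here. The day was chosen to precede a loss of bone seen at day 28. The labels do not say whether the libraries of a group came from separate mice, so p-values measure the spread between these libraries only.

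VEGF ligands act on receptor tyrosine kinases of endothelial cells: Vegfa binds Flt1 and Kdr, Vegfb binds Flt1, and Vegfc binds Flt4, which in marrow marks the sinusoids, the wide vessels through which blood cells leave. Angiopoietin-1 (Angpt1) activates the receptor Tek (also called Tie2) and keeps vessels quiet and tight, angiopoietin-2 (Angpt2) competes with it in a context-dependent way, and Tie1 is a partner receptor of Tek. In marrow, Angpt1 is known from stromal cells, megakaryocytes (the cells that shed platelets) and blood stem and progenitor cells, and Tek from endothelium and blood stem cells.

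The start regions of the genes are shown for 3 members, since they belong to the receptor that changed, a receptor of endothelial cells that did not pass the test, and the ligand with the largest positive difference. RefSeq (build GRCm38.p6) gave promoters for 8 of the 10 members, with none matched for Angpt1 and Angpt2. For 6 members at least 200 of the 250 bases before the start site lay outside the gene as the deposited table bounds it. The sequences run 5′ to 3′ on the strand of the gene, end at the base before the RefSeq start site, and have each CG dinucleotide in capitals. As a check, the end of each RefSeq entry was sought in GENCODE transcripts of the gene. It was found for Tek, Flt1, Vegfb and Kdr but not for Vegfc and Vegfa.
Tek, plus strand, chr4:94739039-94739288: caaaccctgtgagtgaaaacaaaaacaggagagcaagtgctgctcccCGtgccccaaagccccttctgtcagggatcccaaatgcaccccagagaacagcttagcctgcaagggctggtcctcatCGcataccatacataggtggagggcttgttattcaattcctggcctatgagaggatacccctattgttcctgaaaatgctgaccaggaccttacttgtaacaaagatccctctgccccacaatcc
Flt1, minus strand, chr5:147726012-147726261: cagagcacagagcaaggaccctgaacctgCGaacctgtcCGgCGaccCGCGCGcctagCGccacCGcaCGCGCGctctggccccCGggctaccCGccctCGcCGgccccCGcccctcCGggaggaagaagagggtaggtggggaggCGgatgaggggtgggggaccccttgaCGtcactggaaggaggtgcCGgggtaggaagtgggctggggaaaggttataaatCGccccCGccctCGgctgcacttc
Vegfc, plus strand, chr8:54077282-54077531: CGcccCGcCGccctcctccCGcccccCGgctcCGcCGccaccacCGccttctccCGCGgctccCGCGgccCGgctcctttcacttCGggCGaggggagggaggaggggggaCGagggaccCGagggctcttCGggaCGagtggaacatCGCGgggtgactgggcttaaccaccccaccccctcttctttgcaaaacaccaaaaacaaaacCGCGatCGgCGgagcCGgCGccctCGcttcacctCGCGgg
Tek had 2 CG dinucleotides in its 250 bases, against 23 in Flt1 and 30 in Vegfc. Among the 32851 promoters of the RefSeq table the median was 6 in the same window, and 29.0% had 2 or fewer, 13.3% had 23 or more and 5.94% had 30 or more. Vegfa had 11, Vegfb 26 and Kdr 16, the last over 247 bases. The letters AGGAAG, a core that ETS factors of blood vessels bind, were searched on both strands and found 2 times in Flt1 and not in Tek, Kdr, Vegfa, Vegfb and Vegfc, while 29.5% of all promoters held them. ACGTG, the core of hypoxia response elements, was in none of these 6 windows and in 16.6% of all promoters, and AGATAA, which Gata2 and its relatives bind, was in that of Vegfa alone and in 9.99% of all promoters. A match is a match of letters only, and its absence speaks of this window only.

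The depth was 34034251 to 48708383 counts per library. A single row, AY036118, took 32.9% of non-radiated library 2 (95% Wilson limits 32.9% and 33.0%, counting error only), against 0.321% to 5.61% in the other libraries. Levels are given as CPM, read counts normalised to library size after scaling by the trimmed mean of M-values (TMM), and are relative to the bulk of genes. Endothelial cells were represented in every library: all 20 endothelial markers were detected, and their summed level was 363 to 392 CPM in non-radiated and 388 to 430 CPM in radiated libraries. The labelled bone was also evident, with all 13 osteoblast and osteocyte markers detected. Skeletal muscle transcripts, found although muscle had been removed, summed to 516 to 958 CPM in non-radiated libraries and to 2136, 6638 and 672 CPM in radiated libraries 1, 2 and 3. By edgeR 0 of the 24 muscle markers were called, while 22 had an unadjusted p under 0.05, beside 4040 of all 18757 genes tested.

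Of the 10 members 2 changed, Angpt1 and its receptor Tek, and both fell (edgeR quasi-likelihood test, Benjamini-Hochberg adjusted p under 0.05). Over all genes tested, 7.8% were called, 4.56% higher and 3.24% lower. The members' median log2 fold change was -0.07, beside 0.00 for all genes tested. The other 8 members had log2 fold changes between -0.15 and 0.43 and did not pass. The levels of the groups did not overlap for 5 members (Vegfa, Vegfc, Flt1, Angpt1 and Tek), beside 25.9% of all genes tested (14.4% higher and 11.5% lower). The same 5 had an unadjusted p under 0.05 by edgeR, beside 4040 of the 18757 genes tested. The sign was positive for 4 members, Vegfa, Vegfb, Vegfc and Angpt2, and for 8 under scaling by library totals alone. There Flt1, Kdr, Flt4 and Tie1 also turned positive and the median of all genes moved to 0.19. With the rows AY036118 and Gm26917 left out of those totals, 4 members were positive and the median was 0.03.

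**Figure D1:**
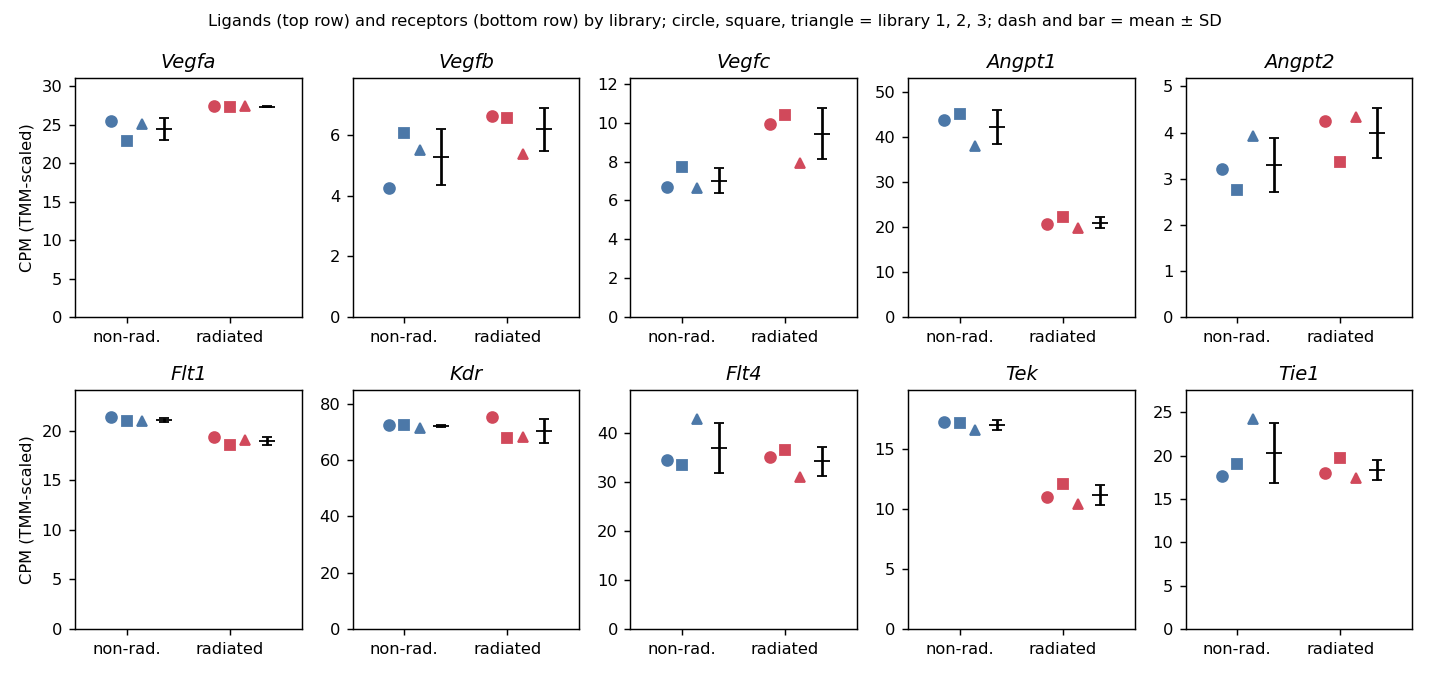
CPM of each member (vertical axis, from 0) in the 3 non-radiated (blue) and 3 radiated (red) libraries, ligands in the top row and receptors in the bottom row, with circle, square and triangle for libraries 1, 2 and 3 and a dash and bar for mean ± SD. Angpt1 drops from between 38.0 and 45.0 to between 19.8 and 22.2 CPM and Tek from between 16.5 and 17.3 to between 10.4 and 12.1 CPM, while Kdr, Flt4, Tie1, Vegfb and Angpt2 overlap between groups.

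Angpt1, the activating ligand of Tek (ENSMUSG00000022309, chromosome 15, 42424727 to 42676977, build mm10), was at 43.6, 45.0 and 38.0 CPM in non-radiated libraries 1, 2 and 3 and at 20.7, 22.2 and 19.8 CPM in radiated libraries 1, 2 and 3. The highest radiated library lay well below the lowest non-radiated one. The means were 42.2 ± 3.73 and 20.9 ± 1.22 CPM (SD, n = 3 each), and the log2 fold change was -1.01 (SE 0.08, adjusted p by edgeR 0.000144), which is 0.495-fold with a 95% interval of 0.434 to 0.565. Angpt1 was called in all 16 alternative fits. The lincRNA Gm17473, on the opposite strand at the start of Angpt1, had 6 to 16 counts per library against 783 to 1610 for Angpt1.

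Tek, the angiopoietin receptor (ENSMUSG00000006386, chromosome 4, 94739289 to 94874976), was at 17.3, 17.2 and 16.5 CPM in non-radiated libraries 1, 2 and 3 and at 11.02, 12.1 and 10.4 CPM in the radiated ones. The non-radiated libraries were close to one another, and every radiated library was lower. Means were 17.0 ± 0.398 and 11.2 ± 0.841 CPM (SD, n = 3 each), with a log2 fold change of -0.60 (SE 0.09, adjusted p by edgeR 0.00325), or 0.659-fold (95% interval 0.575 to 0.754). The call was kept in 15 of 16 alternatives and lost under library totals alone (-0.41, adjusted p 0.479), where the median of all genes was 0.19. It was kept when the rows AY036118 and Gm26917 were left out of those totals (-0.57, adjusted p by edgeR 0.00347). In bulk tissue, fewer cells of a type and less RNA per cell cannot be told apart.

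Tie1, the partner receptor of Tek (ENSMUSG00000033191, chromosome 4, 118471191 to 118490061), was at 17.6, 19.0 and 24.2 CPM in non-radiated and 18.0, 19.7 and 17.4 CPM in radiated libraries. The groups overlapped, and non-radiated library 3 was the highest. The log2 fold change was -0.14 (SE 0.12, 95% interval -0.41 to 0.12, edgeR adjusted p 0.545), and 0.00 without non-radiated library 3. Angpt2, the competing ligand (ENSMUSG00000031465, chromosome 8, 18690263 to 18741562), was the member with the fewest counts, 69 to 194 per library. Its levels were 3.21, 2.75 and 3.92 CPM in non-radiated and 4.25, 3.37 and 4.35 CPM in radiated libraries, and they overlapped. The log2 fold change was 0.27 (SE 0.17, 95% interval -0.12 to 0.65, edgeR adjusted p 0.431). Angpt2 lies inside Mcph1, a gene of the opposite strand with 2758 to 5246 counts per library. Whether strand was used in counting is not given, so reads of Mcph1 could be among those of Angpt2.

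**Figure D2:**
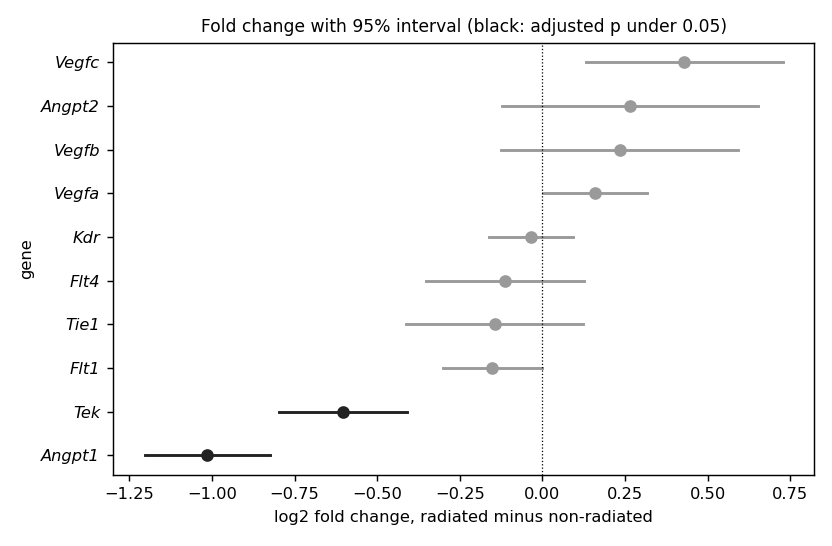
Log2 fold change of each member, radiated minus non-radiated (horizontal axis), with its 95% interval from the edgeR fit; black marks an adjusted p under 0.05. Angpt1 at -1.01 and Tek at -0.60 are the 2 members in black, and the other 8 lie between -0.15 and 0.43 in grey (8 members positive under library totals alone, 4 here).

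Markers of several cell types fell in the libraries in which Angpt1 and Tek were low, and their part in these differences was not tested. All 15 megakaryocyte markers were called lower, with a summed level of 2204 to 2254 CPM in non-radiated and 830 to 946 CPM in radiated libraries and a median log2 fold change of -1.41. Itga2b, the platelet integrin subunit, fell by 1.41 on the log2 scale (SE 0.06, adjusted p by edgeR 5.94e-06). The 10 stem and progenitor cell markers summed to 203 to 209 CPM in non-radiated and 127 to 140 CPM in radiated libraries, with 5 called lower and 0 higher. Among them Slamf1, a surface marker of blood stem cells that megakaryocytes carry too, fell by 1.24 on the log2 scale. Marrow stroma markers differed less as a sum, at 1640 to 1748 CPM against 1470 to 1616 CPM, which was lower without overlap. They moved both ways: 4 were positive and 6 negative, with 3 called higher and 1 lower. Adipoq, also an adipocyte marker, rose by 1.02, Il7 by 0.64 and Angptl4 by 0.39 (edgeR adjusted p 0.00191, 0.0190 and 0.0194). Lepr, the leptin receptor of perivascular stroma, was the gene called lower, at -0.48 (edgeR adjusted p 0.00381). Of 16 alternatives, 16 kept the call of Adipoq, 10 that of Il7, 9 that of Angptl4 and 15 that of Lepr. None of the markers of these 3 lists was at 0 in any library. Other lists moved too: osteoblast and osteocyte markers summed to 5405 to 8086 CPM in non-radiated and 4172 to 5297 CPM in radiated libraries, with 12 of 13 negative, 4 called lower and a median of -0.47, and of 10 neutrophil markers all were negative and 2 were called lower. Of 12 chondrocyte markers 11 were negative and 1 was called lower. Macrophage markers went the other way, with 7 of 11 called higher and 1 lower and sums of 866 to 919 CPM against 1045 to 1232 CPM.

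The endothelial markers did not fall as a list. Of 20 tested, 1 was called higher and 3 lower, the median log2 fold change was 0.15, and 13 were positive. Gpihbp1, a capillary protein that anchors lipoprotein lipase, rose by 0.85 (edgeR adjusted p 0.0283), a call lost in 6 of the 16 alternatives, among which were those without non-radiated library 1 (0.81, adjusted p 0.0999) or 2 (0.69, 0.0894) and without radiated library 1 (0.73, 0.106) or 2 (0.84, 0.0543). Myct1, Esam and Clec14a fell, with log2 fold changes of -0.95, -0.55 and -0.59 (edgeR adjusted p 0.00191, 0.00480 and 0.0275), and Esam, a junction adhesion molecule, is also carried by platelets and blood stem cells. Clec14a lost its call in 8 of 16 alternatives, and of the fits that left out 1 library it was called in the one without non-radiated library 2 alone (adjusted p 0.0556 to 0.0922 in the others). Pecam1 and Cdh5, adhesion molecules of endothelial junctions, had log2 fold changes of 0.20 and 0.30 and did not pass (edgeR adjusted p 0.0581 and 0.0585). They were named after their values were seen. Of the 8 sinusoidal markers 3 were called lower, Selp at -1.28, Sele at -1.82 and Dnase1l3 at -0.77, and 0 higher. The list did not fall as a sum, at 604 to 698 CPM in non-radiated and 663 to 726 CPM in radiated libraries. Vcam1, also a marrow stroma marker, was the largest part of that sum, at 311 to 415 CPM against 435 to 460 CPM. The sum therefore says little of the other sinusoidal markers. Of the list's log2 fold changes 3 were positive and 5 negative. Selp, P-selectin, is also a platelet gene. Mural cells, which wrap vessels, had 4 of 11 tested markers called higher and 0 lower, led by the contractile genes Tagln at 2.40 and Acta2 at 1.72. As a sum the mural list overlapped, at 245 to 279 CPM in non-radiated and 266 to 338 CPM in radiated libraries.

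**Figure D3:**
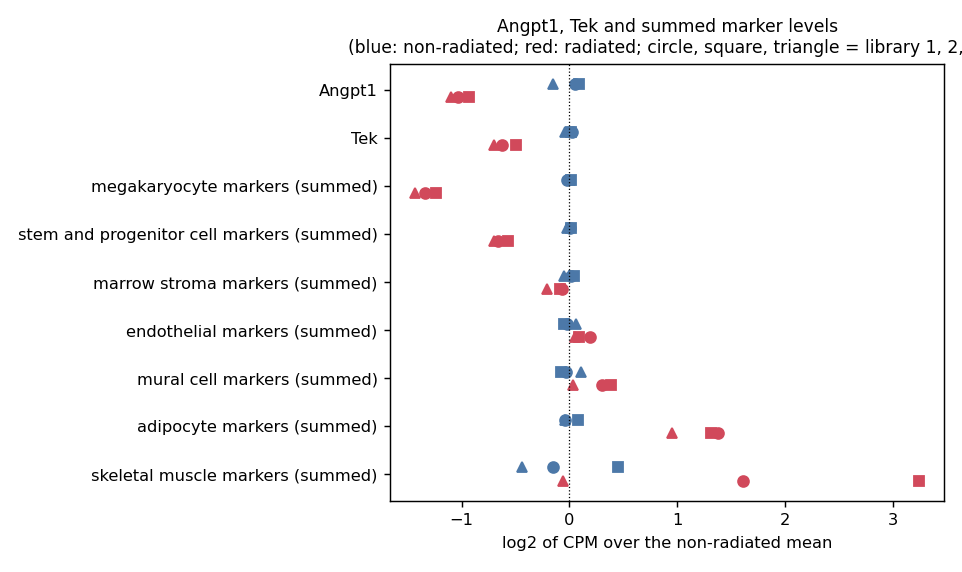
Angpt1, Tek and the summed CPM of 7 marker lists in each library, as log2 over the non-radiated mean (horizontal axis); blue is non-radiated, red is radiated, and circle, square and triangle are libraries 1, 2 and 3. The summed megakaryocyte markers go from at least 2204 to at most 946 CPM, the endothelial sums overlap between 388 and 392 CPM, and the muscle sums of the radiated libraries spread from 672 to 6638 CPM.

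No VEGF ligand passed the test. Vegfc, the ligand of Flt4 (ENSMUSG00000031520, chromosome 8, 54077532 to 54186454), was at 6.69, 7.75 and 6.63 CPM in non-radiated libraries 1, 2 and 3 and at 9.96, 10.4 and 7.93 CPM in the radiated ones. The groups did not overlap, but radiated library 3 was only just above non-radiated library 2. The log2 fold change was 0.43 (SE 0.13, 95% interval 0.13 to 0.73, edgeR adjusted p 0.0862). It was called in 2 of 16 alternatives, by DESeq2's Wald test (adjusted p 0.0435) and without radiated library 3 (0.54, adjusted p 0.0370). The radiated libraries ranked by Vegfc as they did by muscle transcripts. With the summed muscle markers as a covariate the difference was 0.21 (edgeR adjusted p 0.526). Radiated libraries 1 and 2 held more muscle transcripts than any non-radiated library, so this covariate overlaps with group. The part of muscle in the difference was not tested.

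Vegfa, the main ligand of Kdr and a hypoxia-responsive gene (ENSMUSG00000023951, chromosome 17, 46016993 to 46032377), was at 25.5, 22.8 and 25.1 CPM in non-radiated and at 27.4, 27.3 and 27.5 CPM in radiated libraries. The radiated libraries were nearly equal and all above the non-radiated ones. The log2 fold change of 0.16 (SE 0.07, 95% interval 0.00 to 0.32) had an edgeR adjusted p of 0.225, was not called in any of the 16 alternatives, and was 0.10 without non-radiated library 2. Vegfb, a ligand of Flt1 (ENSMUSG00000024962, chromosome 19, 6982473 to 6987651), was at 4.25, 6.07 and 5.52 CPM in non-radiated and at 6.63, 6.57 and 5.38 CPM in radiated libraries. The groups overlapped, with non-radiated library 1 the lowest, and the log2 fold change of 0.23 (SE 0.16, 95% interval -0.12 to 0.59, edgeR adjusted p 0.456) went to 0.10 without that library. With the muscle covariate, which overlaps with group, it was 0.07, and the part of muscle was not tested here either.

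The 3 VEGF receptors did not pass either. Kdr, the main signalling receptor of Vegfa (ENSMUSG00000062960, chromosome 5, 75932827 to 75978458), was at 72.4, 72.3 and 71.5 CPM in non-radiated and at 75.2, 67.7 and 68.2 CPM in radiated libraries. The radiated libraries lay on both sides of the non-radiated ones, and the log2 fold change was -0.03 (SE 0.06, adjusted p by edgeR 0.786). Its 95% interval, -0.16 to 0.09, was the narrowest of the members. Flt1, a high-affinity receptor that also acts as a decoy (ENSMUSG00000029648, chromosome 5, 147561604 to 147726011), was at 21.4, 21.0 and 21.0 CPM in non-radiated and at 19.4, 18.6 and 19.1 CPM in radiated libraries. The groups did not overlap, and the log2 fold change of -0.15 (SE 0.07, 95% interval -0.30 to 0.00, edgeR adjusted p 0.227) was not called in any of the 16 alternatives. Flt4, the sinusoidal receptor of Vegfc (ENSMUSG00000020357, chromosome 11, 49609263 to 49652739), was at 34.4, 33.3 and 42.8 CPM in non-radiated and at 34.9, 36.5 and 30.9 CPM in radiated libraries. The groups overlapped, and the log2 fold change of -0.11 (SE 0.11, 95% interval -0.35 to 0.13, edgeR adjusted p 0.605) was 0.00 without non-radiated library 3.

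Divided by gene length, the levels put Angpt1 and Kdr first in non-radiated bone, at 9.92 ± 0.876 and 9.90 ± 0.0646 CPM per kilobase (SD, n = 3), which did not differ beyond their spread. Vegfa followed at 5.71 ± 0.339. Flt4, Tie1, Vegfc, Tek and Vegfb came next at 4.48 ± 0.627, 4.13 ± 0.706, 3.73 ± 0.333, 3.61 ± 0.0845 and 3.29 ± 0.581 CPM per kilobase, each within the spread of its neighbour. Flt1 at 1.82 ± 0.0193 and Angpt2 at 0.893 ± 0.159 were last. In radiated bone Kdr stood alone at the top at 9.66 ± 0.575, ahead of Vegfa at 6.38 ± 0.0225, and Angpt1, at 4.91 ± 0.286 CPM per kilobase, was below Vegfc at 5.02 ± 0.702 by less than their spread. Tek at 2.37 ± 0.178 was then below Flt4, Vegfb and Tie1, at 4.14 ± 0.352, 3.86 ± 0.441 and 3.74 ± 0.240. The full length of each gene model was used, so isoforms were not separated.

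Ratios of counts within a library do not depend on how libraries are scaled, and 9 were compared with a two-sided exact permutation test. With 20 ways to assign the labels its smallest p is 0.1. None could therefore pass 0.05, and the smallest value adjusted over the 9 was 0.15. Angpt2 to Angpt1 was 0.0738, 0.0616 and 0.103 in non-radiated libraries and 0.206, 0.152 and 0.220 in radiated libraries 1, 2 and 3. Every radiated library had the higher ratio, with a difference of 1.29 on the log2 scale (exact permutation p 0.1). Tek to the summed endothelial markers was 0.0467, 0.0474 and 0.0422 in the non-radiated group against 0.0257, 0.0304 and 0.0269 in the radiated group, a difference of -0.72 (exact permutation p 0.1). Every radiated library was below every non-radiated one. The summed markers were themselves 363 to 392 CPM in non-radiated and 388 to 430 CPM in radiated libraries. Tek is also known from blood stem cells, so this ratio is not a level of Tek per endothelial cell. The same ratio differed by -0.26 for Flt1, -0.15 for Kdr, -0.22 for Flt4 and -0.24 for Tie1, with no overlap between groups for the first 2 of these and overlap for the last 2 (exact permutation p 0.1, 0.1, 0.2 and 0.2). Flt1 to Kdr was 0.290 to 0.295 in non-radiated and 0.258 to 0.280 in radiated libraries (log2 difference -0.11, exact permutation p 0.1). Vegfc to Flt4 was 0.155 to 0.233 against 0.257 to 0.285 (0.52, exact permutation p 0.1), and Vegfa to Vegfb overlapped, at 3.75 to 5.99 against 4.13 to 5.10 (-0.08, exact permutation p 0.8). The sign of this last difference turned without non-radiated library 1 (0.10).

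**Figure D4:**
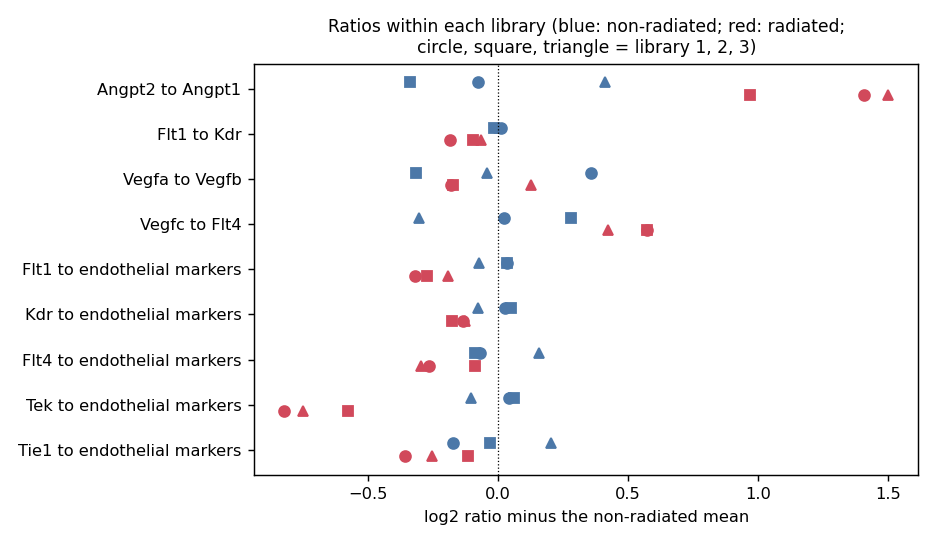
The 9 ratios in each library as log2, minus the non-radiated mean (horizontal axis); blue is non-radiated, red is radiated, and circle, square and triangle are libraries 1, 2 and 3. Angpt2 to Angpt1 is shifted by 1.29 and Tek to the endothelial markers by -0.72, the 2 rows with the widest gap between the groups, while Vegfa to Vegfb overlaps.

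Other genes of the pathway were taken from 6 lists. Of 83 genes tested, 12 were called higher and 6 lower, which is 21.7% beside 7.8% of all genes. Under library totals alone 10 were called, and 1000 genes in all. The lists were chosen with earlier results of these data known, so this share is not a test of the pathway. None of the 3 remaining ligands passed: Vegfd, Pgf and Angpt4 had log2 fold changes of 0.39, -0.18 and 0.30 (edgeR adjusted p 0.319, 0.662 and 0.420). Among 16 co-receptors and regulators, 4 were called higher and 1 lower. Svep1, an extracellular matrix protein known to bind Tie1, was at 38.2, 36.9 and 39.6 CPM in non-radiated and 75.1, 67.8 and 67.2 CPM in radiated libraries, and rose by 0.87 (SE 0.06, adjusted p by edgeR 6.66e-05). Foxo1, the transcription factor that Tek signalling restrains and that drives Angpt2, rose by 0.52 (SE 0.08, adjusted p by edgeR 0.00383), and Plcg1, which couples Kdr to calcium signalling, rose by 0.36 (edgeR adjusted p 0.0102). The call of Plcg1 was lost in 3 of 16 alternatives, one of which left out non-radiated library 2 (0.31, adjusted p 0.0602). Dok2, an adaptor that binds Tek and is also used in blood cells, fell by 0.65 (edgeR adjusted p 0.000995). The co-receptor Nrp1, named after its values were seen as the fourth gene called higher, rose by 0.23 (edgeR adjusted p 0.0434) but was called in 5 of 16 alternatives, and in none of the 6 that left out a single library (adjusted p 0.0510 to 0.188).

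The hypoxia list holds oxygen sensors, the hypoxia factors and genes they are known to induce, as they induce Vegfa. Of 21 genes 0 were called higher and 1 lower, and 4 had an unadjusted p under 0.05 by edgeR, beside 4040 of all 18757 genes tested. The log2 fold changes ran from -0.43 to 0.89, 10 positive and 11 negative, with a median of 0.00, and the gene called was Ndrg1, a hypoxia-induced gene, at -0.39 (edgeR adjusted p 0.0102). Hif1a and Epas1, which encode the oxygen-regulated subunits of the hypoxia factors, had log2 fold changes of 0.01 and 0.04 (SE 0.08 and 0.07, edgeR adjusted p 0.977 and 0.816). They were chosen after their values were seen, and their protein level, at which oxygen acts, was not measured.

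Notch and tip cell genes, only some of which are active at the front of sprouting vessels, had 4 of 18 genes called higher and 0 lower. Apln, the peptide apelin of sprouting endothelium, was at 1.65, 1.72 and 1.23 CPM in non-radiated and 8.19, 5.54 and 9.72 CPM in radiated libraries. Each radiated library was far above the non-radiated ones, with a log2 fold change of 2.36 (SE 0.23, adjusted p by edgeR 0.000443). Its receptor Aplnr was at 14.98, 10.4 and 16.97 against 26.9, 25.4 and 24.8 CPM and rose by 0.86 (SE 0.15, adjusted p by edgeR 0.00881). Notch4, an endothelial Notch receptor, rose by 0.68 (edgeR adjusted p 0.00628). Esm1, a tip cell proteoglycan named after its values were seen as the remaining call, rose by 0.37 (edgeR adjusted p 0.0172) and lost its call in 5 of 16 alternatives, such as on leaving out non-radiated library 2 (adjusted p 0.0713) or radiated library 1 (0.0663). Apelin is also made by fat cells and muscle. Of 10 adipocyte markers 9 were called higher, with summed levels of 104 to 113 CPM in non-radiated and 207 to 278 CPM in radiated libraries, and the muscle sums are given above. With the muscle covariate the log2 fold change of Apln was 2.68. No fit held the adipocyte markers, and the part of fat cells or of muscle in the rise of Apln was not tested.

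Of 15 endothelial transcription factors, 2 were called higher and 1 lower. Ets1 rose by 0.28 and Elk3 by 0.30 (edgeR adjusted p 0.0182 and 0.0498), calls lost in 5 and 11 of 16 alternatives. Without non-radiated library 1, non-radiated library 2 or radiated library 1 the adjusted p was 0.0561, 0.101 and 0.0759 for Ets1 and 0.0726, 0.189 and 0.177 for Elk3, which also lost its call without non-radiated library 3 (0.0852) or radiated library 2 (0.119). With equal library numbers as a replicate block, Elk3 was no longer called (adjusted p 0.0506). Gata2, shared with blood progenitors and megakaryocytes, fell by 0.60 (edgeR adjusted p 0.00542). Of 12 angiogenesis inhibitors 10 were tested, with 2 called higher and 3 lower. Col18a1, the source of endostatin, rose by 1.17 (edgeR adjusted p 0.000898) and Thbs2 by 0.96 (0.0207), the latter lost without non-radiated library 2 (adjusted p 0.0784), without radiated library 1 (0.0745) and with the muscle covariate (0.115). Thbs1, Pf4 and Timp3 fell, with log2 fold changes of -0.96, -1.41 and -0.48 (edgeR adjusted p 2.29e-05, 1.43e-05 and 0.000533). Thbs1 and Pf4 are cargo of platelet granules, and Pf4 is also in the megakaryocyte list.

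**Figure D5:**
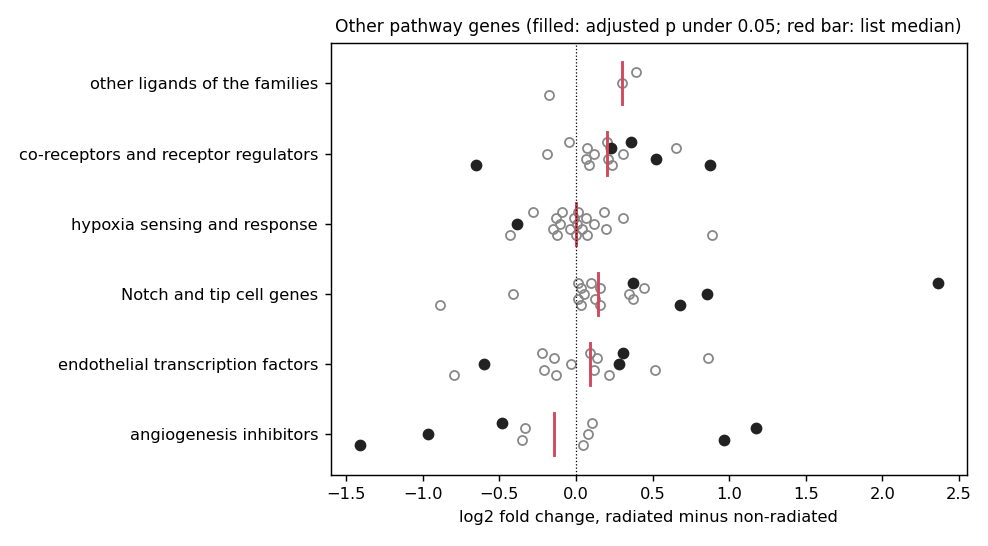
Log2 fold change, radiated minus non-radiated (horizontal axis), of each tested gene in 6 lists of related genes, with filled points for an adjusted p under 0.05 and a red bar at the list median. The point at 2.36 is Apln, the hypoxia list is centred at 0.00, and the inhibitors spread from -1.41 (Pf4) to 1.17 (Col18a1).

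The genes whose level over the 6 libraries was most like that of the called members were found by Pearson's correlation of log2 CPM among genes whose mean was 1 CPM or more. For Angpt1 they were Jak2, Rsu1 and Prkar2b, each with r = 0.998, and for Tek they were Msrb1, Elovl7 and Gp1ba, with r of 0.999, 0.998 and 0.997. Gp1ba encodes a platelet receptor for von Willebrand factor, and Jak2 a kinase of cytokine receptors. These values describe 6 libraries that fall into 2 groups: 333 and 310 of 15579 genes had an r of at least 0.95 with Angpt1 and Tek, and any gene that fell with little spread scores high.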

How the data were processed

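RNA-seq counts of 6 mouse femur libraries, 3 per group, were analysed. Per the submitters' processing notes, the tools included STAR 2.5.2b, Subread and featureCounts and the build was mm10; the annotation and the use of strand are not given in the sources used here. The libraries were stranded mRNA, per the labels. The table deposited by the authors holds raw counts per gene and RPKM values, and the deposited RPKM was not used, since what its library constant counts is not given in the sources used here. Coordinates are those of the table.

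Low genes were removed by filterByExpr (at least 10 counts, 15 in total) and the rest tested with edgeR 4.0.16 in R 4.3.3 (TMM, glmQLFit, glmQLFTest, group as the only term), with Benjamini-Hochberg adjustment over 18757 genes and a threshold of 0.05. A standard error is the log2 fold change divided by the square root of F, and 95% intervals use the fit's degrees of freedom. Log2 CPM for ratios and correlations had a prior count of 0.5. The fit was tested on simulated data. Alternatives were DESeq2 1.42.0 size factors and Wald test, limma 3.58.1 (voom), library totals with and without AY036118 and Gm26917, other filters, a muscle covariate, a replicate block and each library left out; leaving out library 2 of both groups was chosen after seeing the data. Members and lists were chosen with earlier results of these data known. Named genes are the members, up to 3 called genes per direction in each list by smallest p (the smallest p where none was called) and the 3 genes most like each called member; others are marked as chosen after their values were seen. Of the list entries 5 were matched by gene ID and the rest by symbol.

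The main fit and the permutation tests were unpaired. Only the replicate block and the differences within pairs took equal library numbers as pairs. This was done because the deviations of same-numbered libraries from their group means correlated across genes at 0.283, 0.434 and 0.273 for numbers 1, 2 and 3. For unequal numbers the correlations were -0.255 to -0.00905. Deviations from a group mean cancel within the group, so positive values for equal numbers push those for unequal numbers down. Library 2 also held the most muscle transcripts in each group, so a correlation need not mark a shared mouse. Nothing in the labels ties a number to a mouse. Replicates differed by more than sampling noise (chi-square per degree of freedom 16.6 to 580).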

Additional observations from a re-analysis of the deposited data

How the results depend on the processing

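The falls of Angpt1 and Tek kept their direction in all 16 alternatives. The count of members called was 2 and became 1 under library totals alone, where Tek lost its call. In that fit 10 pathway genes and 1000 genes in all were called. Flt1, Kdr, Flt4 and Tie1 turned to 0.039, 0.16, 0.067 and 0.042 there, around a median of 0.19 for all genes. With AY036118 and Gm26917 left out of the totals, 2 members, 19 pathway genes and 1496 genes in all were called. Tek was then at -0.57 (adjusted p by edgeR 0.00347), those receptors were negative again and the median was 0.03. With libraries left out, Flt4 ranged from -0.233 to 0.00371, Tie1 from -0.242 to 0.000542 and Pgf from -0.328 to 0.0136, each highest without non-radiated library 3, and Pgf was at 0.0666 with the muscle covariate. Hif1a turned to -0.00215 with DESeq2 size factors and -0.00223 by DESeq2's Wald test, and ranged from -0.0478 to 0.0798 with libraries left out. Epas1 turned to -0.057 with the muscle covariate and ranged from -0.0161, without radiated library 1, to 0.109. The count of all genes called, 1463, was 973 with the muscle covariate and 764 to 1376 without a library (764 without radiated library 1, 819 without non-radiated library 2, 905 without non-radiated library 1, 779 without library 2 of both groups), with 12 to 18 pathway genes and 2 to 3 members called. With the replicate block 2 members, 18 pathway genes and 1670 genes in all were called, and no call of a member changed. Of the 9 ratios, 8 kept their direction without each library. Vegfa to Vegfb turned to 0.10 without non-radiated library 1 and was 0.14 and 0.17 within pairs 2 and 3, and Flt4 to the endothelial markers was 3.8e-05 within pair 2. The cause of these shifts was not tested.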
